A study of Mus musculus with 6 samples.

Results

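The genes described here are 10 markers of the non-epithelial compartments of the uterus: Pdpn, Tcf21 and Thy1 for stroma, Upk3b and Gpm6a for mesothelium, Cald1, Ldb3 and Synpo2 for smooth muscle, and Sox7 and Lyve1 for vessels. They were chosen by name, and every probe set with one of them as its 1 gene symbol was taken. This gave 11 probe sets (Synpo2 had 2) among the 1382 probe sets of the table, or 10 of its 987 genes named in this way. The 57 probe sets with several symbols were not searched. Below, a gene is said to be in the table where it was the 1 symbol of a probe set. The arrays measured RNA of whole uteri from female mice at 3.5 days post coitum, 3 labelled Stat3 f/f and 3 labelled Stat3 d/d. Stat3 f/f stands for floxed and Stat3 d/d for deleted alleles of Stat3, a transcription factor activated by cytokines. The promoter that drove the deletion, the cells it reached and the age of the mice were not stated in the labels.

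The uterine wall is built in layers. An endometrium of epithelium and stromal fibroblasts is surrounded by the smooth muscle of the myometrium, and a thin mesothelium covers the outer surface. Blood and lymphatic vessels run through the stroma and muscle. At this stage, shortly before implantation, stromal cells are preparing to decidualise, and vessels and leukocytes of the endometrium are changing. The question put to the markers was whether the make-up of the tissue differed between the groups. In RNA of a whole organ, fewer cells of a type and less of its RNA per cell cannot be told apart.

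The table had already been selected on the comparison of the groups. All 1382 probe sets (100%) had groups that did not overlap, the smallest ratio of group means was 1.50, and 100% of probe sets had an adjusted p under 0.05 by limma. The p-values below therefore describe the spread around a difference that had to be there. Of the table, 67.4% was higher in Stat3 d/d and 32.6% was lower. Stat3 itself fell from 287 ± 60.8 to 118 ± 14.9 (mean intensity ± SD, n = 3 arrays each) on the brighter of its 2 probe sets. Pgr, the progesterone receptor gene, is not particular to stroma, epithelium or muscle of the uterus. On its brightest probe set it read 1261 ± 305 in the Stat3 f/f arrays and 694 ± 43.9 in Stat3 d/d. Whether each array stands for its own animal is not stated in the labels, so the errors cover the spread among arrays, part of which may be technical.

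All 11 marker probe sets passed the threshold, against 100% of the table. Of these, 7 had higher intensities in Stat3 d/d and 4 had lower ones, against 67.4% and 32.6% of the table, and by gene 6 were higher and 4 lower, against 66.9% and 33.1%. The shares lie near those of the table. Higher in Stat3 d/d were Pdpn, Tcf21, Upk3b, Gpm6a, Synpo2 and Lyve1, and lower were Thy1, Cald1, Ldb3 and Sox7. Stroma, smooth muscle and vessels each had markers on both sides, and the mesothelial pair was higher. The changes were modest for this table. Their sizes ran from 0.66 to 1.12 on the log2 scale with a median of 0.76, against a median of 0.87 over the table, and 9 of 11 lay below that median. The median signed change was 0.74 for the markers and 0.70 for the table.

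**Figure D1:**
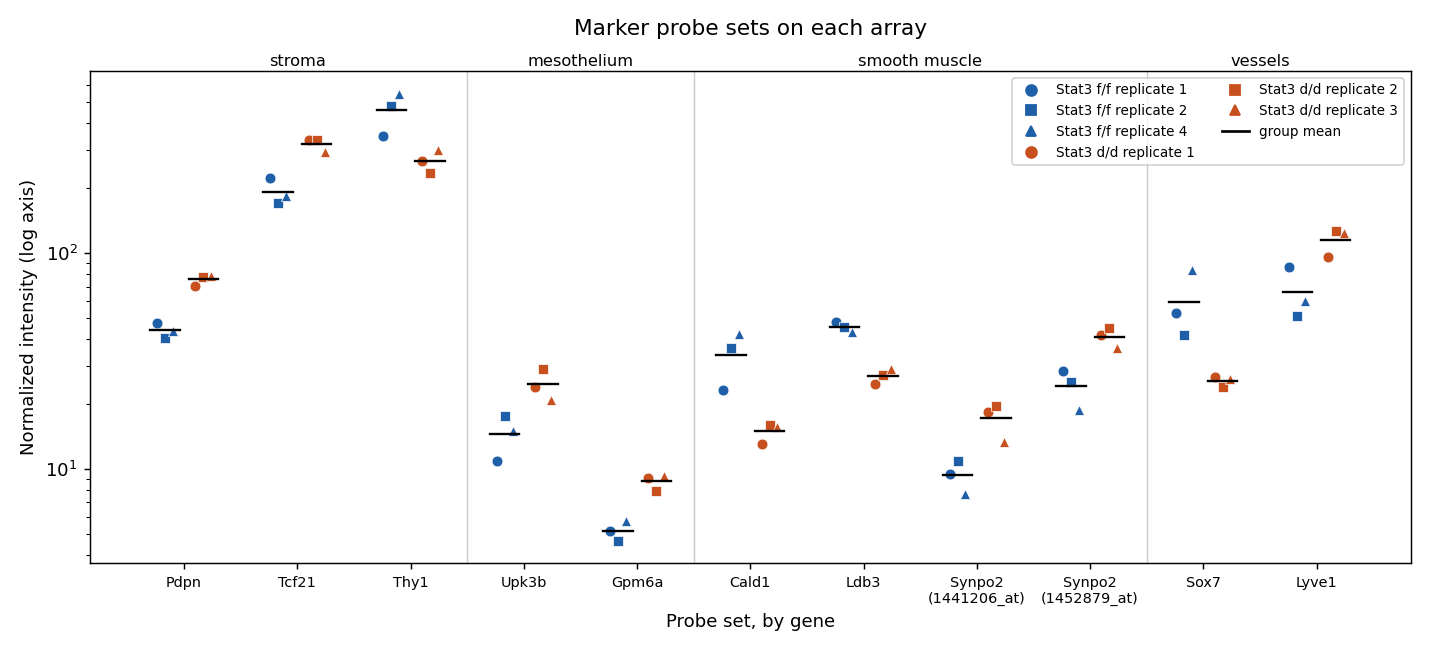
Normalized intensity (log axis) of the 11 marker probe sets on each array, grouped by marker class; blue symbols are Stat3 f/f arrays, orange symbols Stat3 d/d arrays, and black bars the group means (n = 3). Thy1, Cald1, Ldb3 and Sox7 lie lower in Stat3 d/d and the other 7 probe sets higher, and no probe set has overlapping groups.

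Among the stromal markers, Pdpn and Tcf21 were higher and Thy1 was lower in Stat3 d/d. Pdpn encodes podoplanin, a mucin-like surface glycoprotein of fibroblasts that is also found on lymphatic endothelium and mesothelium. Its intensities (1419309_at) were 47.6, 40.5 and 43.5 in Stat3 f/f replicates 1, 2 and 4, and 70.5, 78.0 and 78.6 in Stat3 d/d replicates 1, 2 and 3. The arrays of each group lay close together, and the lowest Stat3 d/d array was 1.48 times the highest Stat3 f/f array. The change was 0.77 (log2, SE 0.16, adjusted p = 0.00166 in limma), or 1.71-fold.

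Tcf21, a basic helix-loop-helix transcription factor of mesenchymal progenitors, read 223, 171 and 184 in the Stat3 f/f arrays (1417447_at, replicates 1, 2 and 4) and 336, 334 and 294 in Stat3 d/d (replicates 1, 2 and 3). It was among the brighter probe sets, at percentile 92.2 of mean intensity in the table. The change was 0.74 (log2, SE 0.17, adjusted p = 0.00273 in limma), a size close to that of Pdpn.

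Thy1, a glycolipid-anchored surface protein of fibroblasts that T cells and neurons also carry, went the other way. Its probe set (1423135_at) read 349, 483 and 549.9 in the Stat3 f/f arrays and 268, 236 and 302 in Stat3 d/d, in the same order of replicates. The Stat3 f/f arrays were widely spread, and the lowest of them, replicate 1, was 1.16 times the highest Stat3 d/d array. The change was -0.76 (log2, SE 0.20, adjusted p = 0.00524 in limma). It was -0.62 without Stat3 f/f replicate 4 and -0.94 without Stat3 f/f replicate 1.

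Other genes of the stromal list sided with Thy1. The list held 24 genes, of which 6 were in the table, with 2 higher and 4 lower. Their median change was -0.91, against 0.70 over all genes of the table, of which 66.9% were higher. Pi16, a peptidase inhibitor of fibroblasts around vessels, fell from 177 ± 13.1 to 77.1 ± 5.23 (-1.19, SE 0.16). Clec3b, which encodes the plasminogen-binding tetranectin, fell from 293 ± 29.4 to 138 ± 46.5 (-1.14, SE 0.24). The small proteoglycan gene Dcn, dim on its probe set, was at 27.6 ± 6.58 and 12.7 ± 2.71 (-1.06, SE 0.22). Any other probe set of Dcn was not analysed here, so the level of its main transcripts is not covered. Stromal genes of this table were thus split, with Pdpn and Tcf21 as the 2 that were higher. The 18 list genes not found on a probe set with 1 gene symbol were not analysed here.

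Both mesothelial markers were higher in Stat3 d/d, at low intensities. Upk3b, a uroplakin made by mesothelium and by urothelium, read 10.9, 17.6 and 15.0 in the Stat3 f/f arrays (1454881_s_at, replicates 1, 2 and 4) and 23.9, 29.1 and 21.0 in Stat3 d/d (replicates 1, 2 and 3). The Stat3 d/d arrays began 1.19 times above the highest Stat3 f/f array. The change was 0.74 (log2, SE 0.21, adjusted p = 0.0064 in limma), the largest adjusted p of the 11 probe sets. The suffix of this probe set is one that Affymetrix gives where probes match more than 1 transcript.

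Gpm6a, a membrane glycoprotein best known from neurons and also made by mesothelium, read 5.16, 4.64 and 5.74 in the Stat3 f/f arrays (1426442_at) and 9.11, 7.89 and 9.23 in Stat3 d/d. These values lie near the lowest intensity of the table, 2.47, and at percentile 8.47 of its mean intensities. The change was 0.66 (log2, SE 0.16, adjusted p = 0.0038 in limma), and 0.22 when 16 in place of 1 was added to each intensity before taking log2. No gene of the nerve and glia list (11 genes) was found on a probe set with 1 gene symbol, so Gpm6a was not set against neuronal markers. The mesothelial list held 13 genes, of which these 2 were in the table, with a median change of 0.70. Over all genes the median was also 0.70, and 66.9% were higher.

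The gene Ovgp1, the oviductal glycoprotein and the 1 gene in the table from the 10 of the ovary and oviduct list, moved in the same direction as the mesothelial markers. It read between 7.42 and 31.3 in the Stat3 f/f arrays and between 240 and 494 in Stat3 d/d (344 in replicate 1, 494 in replicate 2 and 239.7 in replicate 3). Within Stat3 d/d, Upk3b and Ovgp1 were both highest in replicate 2 and lowest in replicate 3, and Gpm6a was lowest in replicate 2. Within Stat3 f/f, Ovgp1 was highest in replicate 1, where Upk3b was lowest. The part of tissue attached to the uterus in the mesothelial values was not tested.

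The promoter of Gpm6a is shown because it was the only member promoter with the letters that STAT factors are known to bind, TTCNNNGAA, searched on both strands. RefSeq's promoter table (GRCm38.p6) held 10 windows of 300 bases for 7 of the 10 genes, with entries for Synpo2, Pdpn, Upk3b, Cald1, Gpm6a, Tcf21 and Ldb3. The letters were in 1 of these 10 windows and in 8.30% of all 32851 windows. The 250 bases before the second annotated start of Gpm6a (chr8:54954478-54954727, plus strand) are given with the match in capitals, which begins at position -200 from the start.
Gpm6a: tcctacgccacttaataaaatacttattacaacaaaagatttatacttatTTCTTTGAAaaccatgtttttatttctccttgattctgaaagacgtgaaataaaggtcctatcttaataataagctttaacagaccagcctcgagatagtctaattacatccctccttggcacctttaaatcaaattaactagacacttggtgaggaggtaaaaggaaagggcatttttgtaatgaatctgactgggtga
The match describes these letters and not a site that was measured.

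Smooth muscle markers went both ways. Cald1 encodes caldesmon, an actin- and calmodulin-binding regulator of smooth muscle contraction. Its probe set in the table (1433147_at) read 23.2, 36.2 and 42.1 in the Stat3 f/f arrays (replicates 1, 2 and 4) and 13.1, 16.04 and 15.6 in Stat3 d/d (replicates 1, 2 and 3). The Stat3 f/f arrays spread over a wide range, and replicate 1 was nearest to the Stat3 d/d arrays, at 1.45 times the highest of them. The change was -1.09 (log2, SE 0.22, adjusted p = 0.00151 in limma), or 2.14-fold lower, and it was -0.92 without Stat3 f/f replicate 4 and -1.34 without Stat3 f/f replicate 1. This is the smallest adjusted p of the 11 probe sets. Any other probe set of Cald1 was not analysed here, so the level of its main transcripts is not covered.

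Ldb3, a PDZ and LIM domain protein that anchors actin at the Z-disc of striated muscle and is also made in smooth muscle, was tight within groups. It read 48.0, 45.5 and 42.9 in the Stat3 f/f arrays (1433783_at) and 24.7, 27.4 and 29.1 in Stat3 d/d. The lowest Stat3 f/f array was 1.47 times the highest Stat3 d/d array. The change was -0.73 (log2, SE 0.16, adjusted p = 0.00218 in limma), or 1.66-fold lower.

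Synpo2, also called myopodin, an actin-bundling protein of smooth and striated muscle, was higher in Stat3 d/d on both of its probe sets. The brighter (1452879_at) read 28.4, 25.4 and 18.7 in the Stat3 f/f arrays and 41.9, 44.9 and 36.2 in Stat3 d/d. The dimmer (1441206_at) read 9.48, 10.9 and 7.63 against 18.5, 19.6 and 13.4. On both, Stat3 f/f replicate 4 was the lowest Stat3 f/f array and Stat3 d/d replicate 3 the lowest Stat3 d/d array. The changes were 0.75 (log2, SE 0.19, adjusted p = 0.00431 in limma) and 0.81 (SE 0.20, adjusted p = 0.0037). The probe sets thus gave like changes, and averaging them would leave Synpo2 opposite to Cald1 and Ldb3.

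The smooth muscle list held 23 genes, and these 3 were the ones in the table, 1 higher and 2 lower with a median change of -0.73. Contractile genes of the list such as Acta2, Myh11, Tagln, Cnn1, Des and Actg2 were not found on a probe set with 1 gene symbol. They were not analysed here, so neither a fall nor a lack of one can be read for them.

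The promoters of Ldb3 and Synpo2 are shown because these muscle genes moved in opposite directions. The CArG box, the motif of serum response factor in many muscle genes, was searched on both strands as CC, then any 6 letters of A or T, then GG. It was in both overlapping windows of Ldb3, in no other of the 10 member windows, and in 1.63% of all windows. The 250 bases before one annotated start of Ldb3 (chr14:34588682-34588931, minus strand) carry it at position -35, in capitals, and those before the start of Synpo2 (chr3:123236150-123236399, minus strand) hold no match.
Ldb3: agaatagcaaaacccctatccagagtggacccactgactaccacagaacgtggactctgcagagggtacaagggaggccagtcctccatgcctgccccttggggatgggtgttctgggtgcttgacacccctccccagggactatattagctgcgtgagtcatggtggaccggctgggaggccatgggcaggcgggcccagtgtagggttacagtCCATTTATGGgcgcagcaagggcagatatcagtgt
Synpo2: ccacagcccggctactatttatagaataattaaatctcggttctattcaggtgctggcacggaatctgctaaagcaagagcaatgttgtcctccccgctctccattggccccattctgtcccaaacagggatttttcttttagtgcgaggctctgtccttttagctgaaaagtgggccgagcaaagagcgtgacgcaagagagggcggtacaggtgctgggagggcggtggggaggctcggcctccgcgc
The match is a description, and its absence says only that these letters are not in the Synpo2 window.

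The vessel markers were also split, with Sox7 lower and Lyve1 higher. Sox7 encodes a transcription factor of endothelial cells. It read 53.0, 41.6 and 83.4 in the Stat3 f/f arrays (1416564_at, replicates 1, 2 and 4) and 26.8, 24.1 and 26.0 in Stat3 d/d (replicates 1, 2 and 3). The Stat3 d/d arrays were nearly equal, and the Stat3 f/f arrays ranged widely with replicate 4 highest. The lowest Stat3 f/f array was 1.55 times the highest Stat3 d/d array, the widest such gap among the 11 probe sets. The change was -1.12 (log2, SE 0.24, adjusted p = 0.00177 in limma), or 2.18-fold lower, and -0.85 without Stat3 f/f replicate 4.

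Lyve1, a hyaluronan receptor of lymphatic endothelium that some tissue macrophages also carry, read 86.2, 51.2 and 60.0 in the Stat3 f/f arrays (1429379_at) and 95.7, 126 and 124 in Stat3 d/d. The groups nearly touched: Stat3 d/d replicate 1 was 1.11 times Stat3 f/f replicate 1, the narrowest gap of the 11 probe sets. The change was 0.82 (log2, SE 0.22, adjusted p = 0.00491 in limma), or 1.77-fold higher. It was 1.03 without Stat3 f/f replicate 1 and 0.66 without Stat3 f/f replicate 2.

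Few other vessel genes were in the table. Of 24 blood vessel genes, 2 were in the table, and both were lower: Sox7, and Mmrn2, an endothelial matrix glycoprotein, at 49.4 ± 1.67 in the Stat3 f/f arrays and 31.2 ± 3.20 in Stat3 d/d (-0.65, SE 0.16). Of 9 pericyte genes, 1 was in the table. This gene, Rgs5, a regulator of G-protein signalling in pericytes and smooth muscle, read 1099, 1006 and 616 in the Stat3 f/f arrays and 262, 330.0 and 370.3 in Stat3 d/d (-1.47, SE 0.24). Of 8 lymphatic genes, 3 were in the table and all 3 were higher, with a median change of 0.82: Lyve1, Pdpn, and Reln, the secreted glycoprotein reelin, at 19.3 ± 3.74 and 42.8 ± 3.92 (1.13, SE 0.19). Over all genes 66.9% were higher with a median of 0.70, so the lymphatic genes lie near the table. After each array was centred on its median over the table, their median was 0.36, against 0.23 over all genes. Pecam1, Cdh5, Kdr, Prox1 and Flt4, which define endothelium and its lymphatic branch, were not found on a probe set with 1 gene symbol. They were not analysed here. The lists were drawn up with earlier results of these data known, and whether they differ from each other was not tested.

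Leukocyte markers moved in the same direction as Lyve1, Pdpn and Reln. Of 28 leukocyte genes, 15 were in the table and 15 were higher, against 66.9% of all genes. Their median change was 1.28, against 0.70 over all genes. After centring the median was 0.81, against 0.23 over all genes. Of the 15, 11 passed, against 63.2% of the table and 45.3% of its rises. After quantile normalization the median was 0.88, against 0.24 over all genes. Again 11 passed, against 64.2% of the table and 46.8% of its rises. With p-values adjusted as if 45000 probe sets had been tested, 7 passed, against 37.5% of the table. The summed intensity of the 15 genes was 953, 886 and 607 in the Stat3 f/f arrays (replicates 1, 2 and 4) and 2625, 2025 and 1552 in Stat3 d/d (replicates 1, 2 and 3). None of the values was at 0, the lowest being 3.51. Among them were the natural killer receptor Klrd1 (2.20, SE 0.20), the granule protein gene Nkg7 (1.85, SE 0.29), the pan-leukocyte phosphatase Ptprc (1.61, SE 0.24) and the integrin Itgax of myeloid cells (1.52, SE 0.18).

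Within Stat3 d/d the leukocyte sum was highest in replicate 1, where Lyve1 and Pdpn were lowest, and lowest in replicate 3, where Pdpn was highest. Within Stat3 f/f both Lyve1 and the leukocyte sum were highest in replicate 1. Mrc1 and Cd163, genes of the macrophages that can carry Lyve1, were not found on a probe set with 1 gene symbol. The macrophage gene Adgre1 rose from 47.7 ± 13.2 to 105 ± 41.8 (1.08, SE 0.28). Adgre1 did not pass after centring (adjusted p = 0.0685 in limma) or quantile normalization (0.0623). Thy1 fell while Cd3g, a T cell gene, was higher, at 4.12 ± 0.58 and 11.6 ± 5.88. Cd3g read between 3.51 and 4.66 in the Stat3 f/f arrays, near the lowest intensity of the table, 2.47. The part of leukocytes in the values of Lyve1 and Pdpn was not tested.

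**Figure D2:**
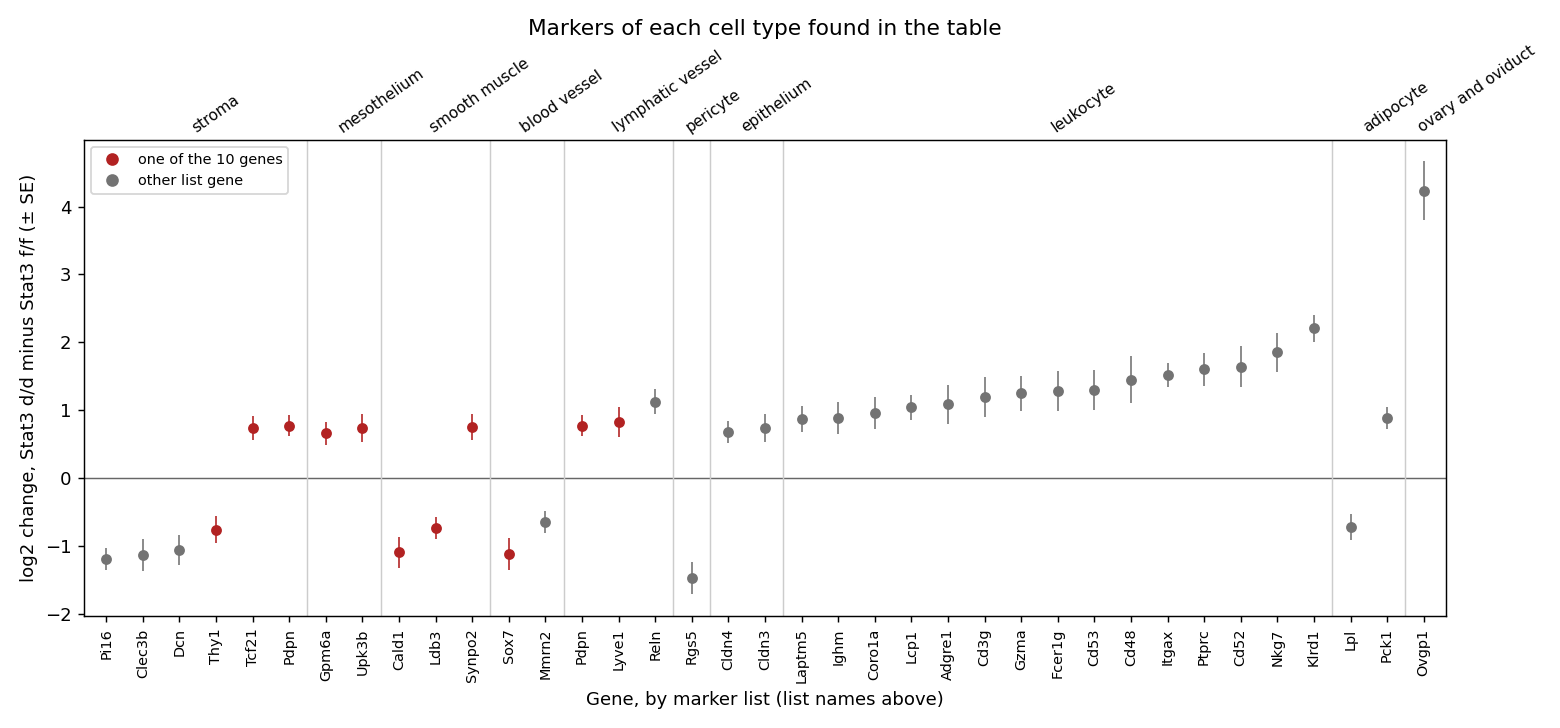
log2 change (Stat3 d/d minus Stat3 f/f, ± SE from limma, n = 3 arrays a group) of each gene of the marker lists that is in the table; red points are the 10 genes described here, with Pdpn on 2 lists, and grey points other list genes. Stroma and smooth muscle have genes on both sides of 0, the blood vessel and pericyte genes lie below it, and the lymphatic and leukocyte genes above it, up to 2.20 for Klrd1. The mesothelial and epithelial genes also lie above 0 and the adipocyte genes on both sides. Ovgp1 of the ovary and oviduct list is the highest point, at 4.23.

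The markers of one class were then compared within each array, since shifting the log2 values of an array by 1 amount, as centring does, leaves the ratio of 2 probe sets of an array as it was. Quantile normalization can move such ratios. There were 8 pairs of genes within a class, 5 of opposite and 3 of the same direction. In the opposite pairs the groups had to be apart, as every gene was, and their size is given as a description, on the log2(intensity + 1) scale. The log2 ratio of Tcf21 to Thy1 was higher in Stat3 d/d by 1.499 (SDs 0.52 in the Stat3 f/f arrays and 0.27 in Stat3 d/d), and that of Pdpn to Thy1 by 1.53 (SDs 0.43 and 0.19). The ratio of Synpo2 to Ldb3 was higher by 1.48 (SDs 0.22 and 0.24), and that of Synpo2 to Cald1 by 1.85 (SDs 0.71 and 0.22). The ratio of Lyve1 to Sox7 was higher by 1.95 (SDs 0.59 and 0.28), the largest of the 8. After quantile normalization these 5 values were 1.41, 1.59, 1.43, 1.81 and 1.98, in the same order.

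In the pairs of the same direction the ratios overlapped between the groups. The ratio of Tcf21 to Pdpn differed by -0.03 (SDs 0.09 and 0.17), that of Upk3b to Gpm6a by 0.08 (SDs 0.39 and 0.34), and that of Ldb3 to Cald1 by 0.37 (SDs 0.51 and 0.07). The first of these was -0.18 after quantile normalization, and the others were 0.08 and 0.37. The ratio of Tcf21 to Pdpn stayed between -0.21 and 0.13 of its Stat3 f/f mean on all 6 arrays, while the mesothelial ratio varied among arrays of a group by more than it differed between them. With 3 arrays a group these overlaps do not show that the genes of a pair changed alike.

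**Figure D3:**
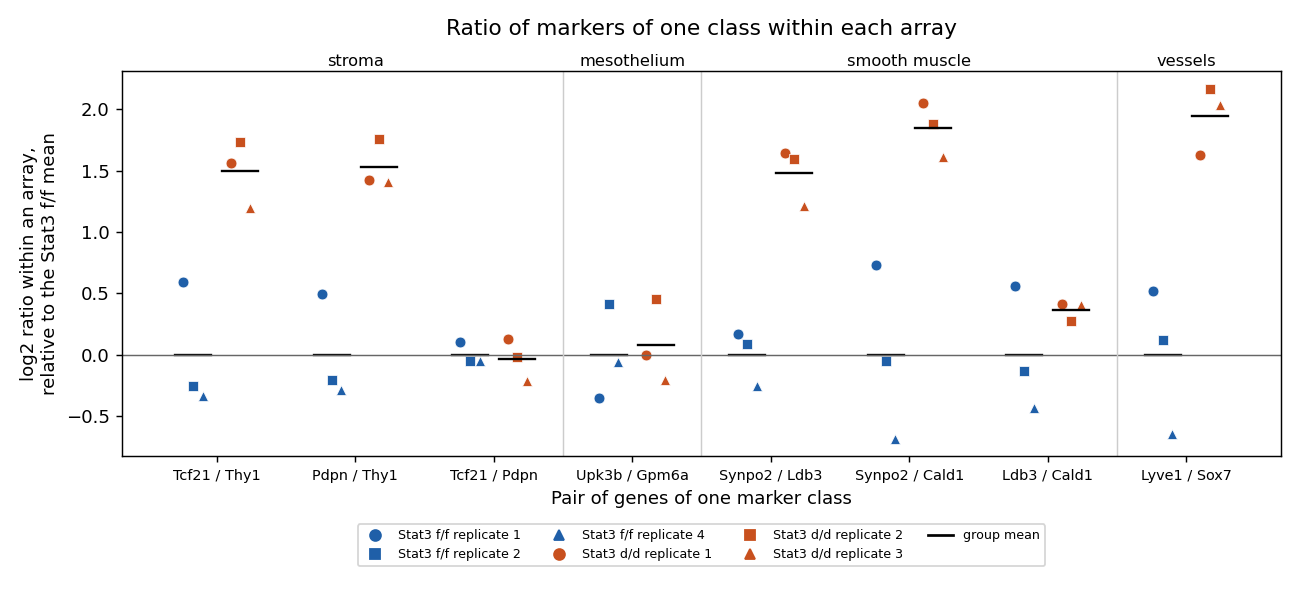
log2 ratio of 2 markers of one class on each array, set relative to the mean ratio of the Stat3 f/f arrays; blue symbols are Stat3 f/f, orange symbols Stat3 d/d and black bars group means (n = 3). The Stat3 d/d means lie at 1.48 to 1.95 for the 5 pairs of opposite direction and at -0.03, 0.08 and 0.37 for the other pairs, where the groups overlap.

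The spread of the markers was uneven between the groups. Of the 11 probe sets, 9 had the larger log2 SD in Stat3 f/f, where the median SD was 0.30, against 0.15 in Stat3 d/d. Among all probe sets 61.4% had the larger SD in Stat3 f/f, with medians of 0.22 and 0.17. Stat3 f/f replicate 4 was the highest array of its group for Thy1, Cald1, Sox7 and Gpm6a, and the lowest for Ldb3 and both Synpo2 probe sets. Stat3 f/f replicate 1 was the highest for Pdpn, Tcf21, Ldb3, Lyve1 and the brighter Synpo2 probe set. No array of Stat3 f/f was therefore high or low for all markers. All 11 probe sets kept their direction and passed when any single array was left out, with the largest adjusted p at 0.0302 in limma on 5 arrays. Of the whole table, 99.6%, 99.3% and 98.6% passed without Stat3 f/f replicates 1, 2 and 4, and 97.5%, 98.7% and 98.3% without Stat3 d/d replicates 1, 2 and 3, so these passes say little about the markers. All 11 also passed without variance moderation, where 98.6% of the table did, and with the replicate number as a block, where 92.9% did.

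The calls of the rises were lost under other scalings of the arrays, and the sizes of rises and falls both moved. With each array centred on its median over the table, the median change of all probe sets went from 0.70 to 0.24, and quantile normalization over the table gave 0.25. Under both, 4 of 11 probe sets passed, against 63.2% of the table after centring and 64.2% after quantile normalization. Among the markers these were 0 of 7 rises and 4 of 4 falls. In the table, 422 of 931 rises (45.3%) and 451 of 451 falls passed after centring, and 436 rises (46.8%) and 451 falls after quantile normalization. As shares of all probe sets, 30.5% were called higher and 32.6% lower after centring, and 31.5% and 32.6% after quantile normalization. The falls of the markers thus passed as did every fall of the table. After centring, Pdpn was at 0.31 (adjusted p = 0.114 in limma), Tcf21 at 0.27 (0.163), Upk3b at 0.27 (0.299), Gpm6a at 0.19 (0.311) and Lyve1 at 0.36 (0.16). The brighter Synpo2 probe set was at 0.29 (0.208). All of these stayed above 0. Thy1 was at -1.22, Cald1 at -1.56, Ldb3 at -1.20 and Sox7 at -1.59, each larger in size than as deposited. Centring lowers every change by the same amount, and which scaling fits these arrays cannot be read from a table that was selected on the comparison. Under that adjustment for 45000 probe sets, about as many as such an array holds, 1 marker passed, Cald1 (adjusted p = 0.0493 in limma), against 37.5% of the table (28.0% higher, 9.48% lower). Reln was the lymphatic list gene that still passed after either scaling (0.66 after centring, adjusted p = 0.00878 in limma).

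**Figure D4:**
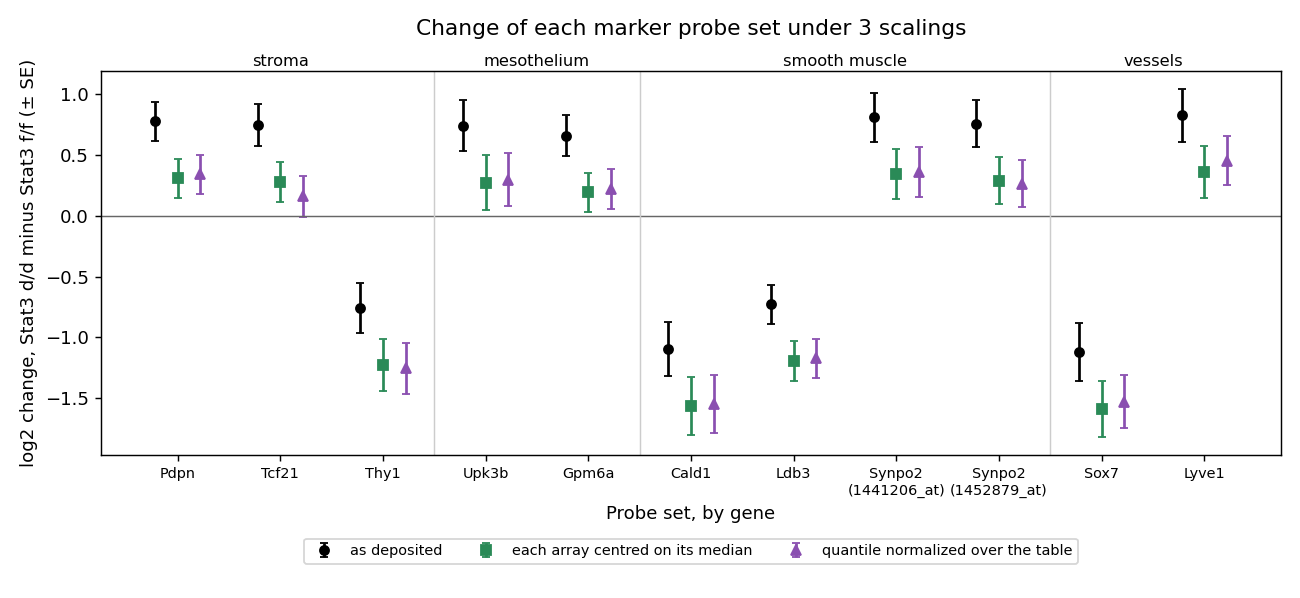
log2 change (Stat3 d/d minus Stat3 f/f, ± SE from limma, n = 3 arrays a group) of the 11 marker probe sets with intensities as deposited (black), with each array centred on its median (green) and after quantile normalization over the table (purple). Both scalings move the rises toward 0, to between 0.16 and 0.45, and the falls away from it, to between -1.17 and -1.59.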

How the data were processed

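Biotin-labelled cRNA from 6 uterine samples was measured on Affymetrix arrays, per the labels' protocols. The authors deposited 1 linear intensity per probe set and array, and RMA (robust multi-array average) is named in the submitters' processing notes with no version. RMA gives log2 values, so a return to the linear scale must have followed, which no source records. The table is a selection of 1382 probe sets. Of these, 1191 had 1 gene symbol in the platform's annotation, 57 several and 134 none, and matching to RefSeq changed 0 symbols.

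Groups came from source names and replicate numbers from titles. A pseudocount of 1 was added before log2, which understates changes of dim genes, and values were compared over the whole table by limma 3.58.1 in R 4.3.3 (lmFit, eBayes, no covariate, Benjamini-Hochberg, threshold 0.05). A positive change means higher in Stat3 d/d. A gene stands by its brightest probe set with 1 gene symbol. The fit was tested on simulated data with no selection on the comparison, so that test does not cover the selection of this table. No list was tested, and the number of arrays limits precision.

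The 10 genes and the 12 marker lists were chosen with earlier results of these data known. Named were the 10 genes, Stat3 and up to 4 further genes of each list with the smallest adjusted p. Pgr, Adgre1 and Cd3g, and list genes named as not found, were chosen after values were seen. Alternatives were 2 other pseudocounts, centring, quantile normalization, a filter on dim probe sets, array weights, an intensity trend, no moderation, the replicate block, 45000 assumed tests, leaving out each array and averaging the probe sets of each gene. Figures were drawn with matplotlib 3.10.9.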

Additional observations from a re-analysis of the deposited data

How the results depend on the processing

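The count of marker probe sets past the threshold was 11 (7 higher, 4 lower). It was 4 after median centring and 4 after quantile normalization, with 0 higher under both, against 63.2% and 64.2% of the table passing. With p-values adjusted as if 45000 probe sets had been tested it was 1 (0 higher, 1 lower), against 37.5% of the table. This was Cald1 at an adjusted p of 0.0493 in limma. Sox7 (0.0576) and Pdpn (0.054) followed. Leaving out each array gave 11 in every case, where 97.5% to 99.6% of the table passed. Without probe sets under the 0.25 quantile of mean intensity, Gpm6a and the dimmer Synpo2 probe set were not tested. The other 9 passed, as did 100% of the 1036 probe sets left in the table. Without variance moderation all 11 passed (largest adjusted p = 0.0382 in limma's ordinary fit), where 98.6% of the table did. No marker changed direction under any of the 16 settings, and 6 genes stayed higher when probe sets of a gene were averaged.

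Replicate numbers 1 and 2 occur in both groups, but nothing says that they pair the samples, and same-numbered arrays deviated together only weakly (r = 0.09 and 0.03 over probe sets). With the replicate number as a block all 11 passed (largest adjusted p = 0.0219 in limma), where 92.9% of the table did. The array values carry no depth. Signal near the bottom of the table limits Gpm6a and the dimmer Synpo2 probe set.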

Other observations

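Markers of the remaining compartments were sparse in the table. Of 22 epithelial genes 2 were present, both higher in Stat3 d/d: the tight junction genes Cldn4 (60.2 ± 3.13 in the Stat3 f/f arrays and 97.5 ± 11.4 in Stat3 d/d, SD, n = 3, log2 change 0.68) and Cldn3 (614 ± 153 and 1008 ± 82.3, 0.74). Neither passed after median centring (adjusted p = 0.255 and 0.267 in limma). Of 9 adipocyte genes 2 were present and went opposite ways. Pck1, the gluconeogenic enzyme gene, was higher at a dim level (5.98 ± 0.54 and 11.9 ± 0.42, 0.88), and Lpl, lipoprotein lipase, lower (48.7, 39.2 and 43.6 against 24.4, 21.8 and 33.3, -0.72). No gene of the blood list (7 genes) was found on a probe set with 1 gene symbol. Probe sets with several symbols were not searched for them. Of all 187 genes on the 12 lists, 36 were in the table.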
